A study of Mus musculus with 8 samples.

Results

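The sites described here lie in the RNAs of 4 genes whose proteins write or read N6-methyladenosine (m6A): Zc3h13, Ythdc1, Prrc2a and Eif3a. They were chosen by gene name from a table, deposited by the authors, of sites where mouse cortex cells of 2 ages differed, called aged and young. The 4 genes hold 8 of the 2055 sites in that table, with 2 sites in Zc3h13, 2 in Ythdc1, 1 in Prrc2a and 3 in Eif3a. The aged mice had the genotype APOBEC1-YTH, a fusion of a cytidine deaminase to the m6A-binding YTH domain that converts C to U beside a methylated A (scDART-seq). The aged mice were 12 to 14 months old when tamoxifen began, which was given daily for 5 days (20 mg/kg, 24 h apart), and cortex was taken 7 days after the last dose. The young mice are part of a separate series, and their values come from this table alone. A difference between the ages therefore cannot be told apart from a difference between the series. The age, genotype and treatment of the young mice, the driver of the transgene and the number of mice of either age are not stated in these sources. The 8 aged libraries were 4 lanes of each of 2 sublibraries, so they are not replicates, and the table gives 1 value per age.

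m6A is the commonest internal mark of messenger RNA. Writers, a methyltransferase core with its associated proteins, place it on A followed by C, and it is known to be dense in long internal exons and near stop codons. Readers bind the mark and steer splicing, export, translation or decay of the RNA. Zc3h13 is a zinc finger protein of the writer complex that helps to hold it in the nucleus. Ythdc1 is the nuclear YTH reader, known for its part in splicing and export. Prrc2a is a reader described in oligodendrocyte lineage cells, and Eif3a is the largest subunit of the translation initiation factor eIF3, which has been described to bind m6A in 5' UTRs. The values below are C-to-U marks on the RNAs of these genes. They measure neither the proteins nor the RNA level.

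In aged cells all 8 sites were marked in a larger share of cells than in young cells, but mean C-to-U was higher at 5 sites and lower at 3. Over all listed sites, 75.4% had a higher share and 41.5% a higher mean. Over those in coding sequence, where all 8 lie, 94.7% had a higher share and 58.0% a higher mean. All 3 Eif3a sites had a higher mean, from 1.55-fold to 5.99-fold. Zc3h13 and Ythdc1 each had 1 site with a higher and 1 with a lower mean, and the single Prrc2a site had a mean 3.84-fold lower. The 5 sites with a higher mean had an A before the edited C, and the 3 with a lower mean had a G there. No replicate stands behind any of these values, so no test between the ages was possible, and the p-values quoted are the authors' own.

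The sequences around the edited C are shown because the base before it separated the sites by direction. Each runs 5' to 3' on the strand of the gene, with 14 bases on each side, and capitals mark the 3 bases before the edited C, the C itself and the base after it. Sites are called by the codon that holds the edited C, counted in the principal protein-coding transcript of the gene.
Zc3h13 codon 750: agcgagaaaggGAGCGggagagggaacga
Zc3h13 codon 858: aaagagaaaaaGAACGagaacggcaaaga
Ythdc1 codon 37: atccagagagtGAACAagataaaaatgag
Ythdc1 codon 228: agtggatgaagATGCAgaggaggaggagg
Prrc2a codon 501: gggcacctgacAAGCGgctcaaggcagag
Eif3a codon 657: tttaaagatatTGACAttgaagaccttga
Eif3a codon 740: caatgcagctaGAACGagaaaaagctctg
Eif3a codon 837: ctgagagagcaAAACGggaggaagaactt

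Of the 8 sites, 4 read AAC and 1 reads GAC up to the edited C, and the other 3 read AGC or TGC. Those 3 have no A directly before the edited C. Cells with C-to-U there are called methylated as in the authors' naming, and whether these 3 sites report m6A was not tested. Over the 1970 listed sites placed on a C, the C followed an A at 76.9%. At 5 of the 8 sites, those after A, the trinucleotide was AAC or GAC with A, G or T before it on the gene's strand. The same holds for 64.9% of the 1970 listed sites on a C, whatever base came before, so 5 of 8 is close to that background. Such a run gives the first 4 bases of the DRACH consensus of m6A, whose last base is A, C or T. Only Ythdc1 codon 37 and Eif3a codon 657 kept that last base, since the other 3 have G. A G followed the edited C at 5 of the 8 sites and at 28.8% of listed sites, while 11.3% of the C bases of the Prrc2a transcript and 17.6% of those of Zc3h13 stand before a G. The motif GAACG, shared by Zc3h13 codon 858 and Eif3a codon 740, occurs 15 times in the Zc3h13 transcript and 10 times in that of Eif3a, and 1 copy in each gene is listed. Counting every C after an A, the listed sites are 1 of 306 in Zc3h13, 1 of 132 in Ythdc1, 0 of 347 in Prrc2a and 3 of 249 in Eif3a. A position that is not listed may be unmarked, marked equally in both ages or too rarely marked to be kept.

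All 8 sites lie in coding sequence, as do 38.7% of listed sites. The Zc3h13 sites lie on the plus strand of chromosome 14 (mm10) at positions 75327696 (codon 750) and 75328020 (codon 858), 324 bases apart in exon 12 of 19. The Ythdc1 sites lie on the plus strand of chromosome 5, at 86815709 in exon 2 (codon 37) and at 86817130 in exon 4 (codon 228) of 17. The Prrc2a site is on the minus strand of chromosome 17 at 35159197, in exon 12 of 31. The Eif3a sites are on the minus strand of chromosome 19, at 60772698 in exon 12 (codon 657), 60771116 in exon 15 (codon 740) and 60768857 in exon 17 (codon 837) of 22. The edited C of codon 657 is 6 bases from the end of its exon, so its printed sequence crosses the junction and is continuous only in the spliced RNA.

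The exons that hold the sites run from 102 bases (Ythdc1 exon 2) to 601 bases (Zc3h13 exon 12), against a median of 211.5 bases over listed coding sites. Along the coding sequence the Zc3h13 sites stand at 43.3% and 49.6% of its length and the Eif3a sites at 48.8%, 55.0% and 62.2%. Those of Ythdc1 stand at 4.93% and 30.9%, and that of Prrc2a at 23.2%. The sites lie 1524 to 4974 bases before the stop codon, and none is in a last exon. The edited C is the first base of its codon at 6 of the 8 sites, and 5 of the codons are CGA or CGG. At 3 sites a C-to-U change gives a stop codon: CGA becomes UGA at Zc3h13 codon 858 and Eif3a codon 740, and CAA becomes UAA at Ythdc1 codon 37. All 3 are among the sites with a higher mean in aged cells. Codons were not counted over the other listed coding sites, so these codon counts have no background to be read against. The exon with Ythdc1 codon 37 is also annotated in Gm43055, a gene of the same strand, so reads there cannot be assigned to Ythdc1 alone. The 41 bases around each of the other sites occurred in no other annotated gene.

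**Figure D1:**
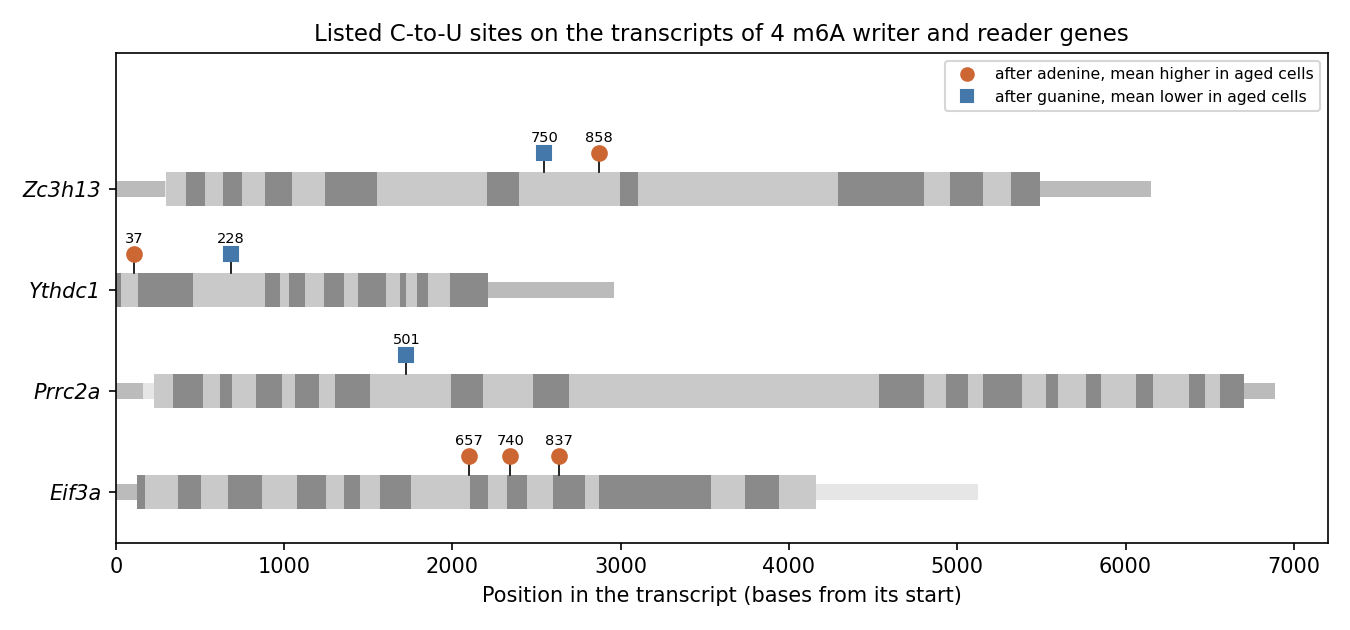
Transcripts of the 4 genes drawn to scale from their first base (x axis, bases), with coding sequence as tall bars, untranslated regions as thin bars and exons in alternating greys. Markers with codon numbers give the 8 sites. Circles are sites after A, all with a higher mean in aged cells, and squares sites after G, all with a lower mean. All 8 lie in coding sequence, and those of Eif3a and Zc3h13 lie in the middle of it.

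Zc3h13, the writer complex member, had 1 site of each direction within the same exon. At codon 858, 10 of 2623 young cells and 19 of 846 aged cells were methylated, which is 0.381% (exact 95% interval 0.183 to 0.700) and 2.25% (1.36 to 3.49). These intervals, here and below Clopper-Pearson, cover counting error between cells and not the spread between mice. Averaged over all cells, C-to-U was 0.136% over young and 0.706% over aged cells (log2 ratio 2.37). The C-to-U fraction among methylated cells was 35.7% and 31.4%, so the difference of the means came with the larger share of cells. The authors' deposited table lists an adjusted p of 1.12e-07.

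At Zc3h13 codon 750 the share also stood higher, with 15 young and 12 aged cells, or 0.572% (0.320 to 0.941) and 1.42% (0.735 to 2.46). The intervals overlap. Mean C-to-U was 0.0818% over young and 0.0208% over aged cells (log2 ratio -1.98). Among methylated cells the fraction was 14.3% (young) and 1.46% (aged), 9.77-fold lower. The authors' deposited table lists an adjusted p of 0.00761, the highest of the 8. The mean of the 2 Zc3h13 differences was 0.254 points higher in aged cells, and the site at codon 858 alone set its sign.

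Ythdc1, the nuclear reader, showed the same split. At codon 37, 23 young and 19 aged cells were methylated, or 0.877% (0.557 to 1.31) and 2.25% (1.36 to 3.49). Mean C-to-U was 0.394% over young and 1.03% over aged cells (log2 ratio 1.38), while the fraction among methylated cells was 44.9% and 45.8%. The authors' deposited table lists an adjusted p of 1.19e-07. The fraction within cells thus differed by 0.870 points and the share by 2.56-fold.

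At Ythdc1 codon 228, 12 young and 15 aged cells were methylated, or 0.457% (0.237 to 0.798) and 1.77% (0.996 to 2.91). The mean was 0.187% over young and 0.0627% over aged cells (log2 ratio -1.57), and the authors' deposited table lists an adjusted p of 0.000402. Among methylated cells the fraction was 40.8% in young cells, close to the 44.9% at codon 37, but 3.54% in aged cells. The 2 sites lie 574 bases apart in the spliced transcript. The mean of their differences was 0.255 points, higher in aged cells through codon 37. Ythdc1 codon 228 and Zc3h13 codon 750 each had 27 methylated cells over both ages, near the lowest total of 25 in the table.

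Prrc2a had the lowest aged fraction within cells of the 8 sites. At codon 501, 11 young and 20 aged cells were methylated, or 0.419% (0.210 to 0.749) and 2.36% (1.45 to 3.63), a 5.64-fold higher share. Mean C-to-U was nevertheless lower, at 0.0676% over young and 0.0176% over aged cells (log2 ratio -1.94). Among methylated cells it was 16.1% (young) and 0.743% (aged), 21.7-fold lower. The authors' deposited table lists an adjusted p of 3.38e-07.

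Eif3a, the translation factor subunit, was the gene with more than 1 site in which all sites had a higher mean. At codon 837, 28 young and 29 aged cells were methylated, or 1.07% (0.710 to 1.54) and 3.43% (2.31 to 4.89). Mean C-to-U was 0.309% over young and 1.85% over aged cells (log2 ratio 2.58), and the authors' deposited table lists an adjusted p of 3.03e-15. The fraction among methylated cells was 28.9% and 54.0%. Of the 8 sites it had the lowest adjusted p and the largest difference of the mean, at 1.54 points.

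At Eif3a codon 740, 19 young and 12 aged cells were methylated, or 0.724% (0.437 to 1.13) and 1.42% (0.735 to 2.46), and the intervals overlap. Mean C-to-U was 0.458% and 1.09%, a log2 ratio of 1.25, and the fraction among methylated cells was 63.3% (young) and 76.7% (aged). The authors' deposited table lists an adjusted p of 5.93e-05. The highest fractions of the 8 sites were at codon 657, with 93.0% within methylated young and 86.9% within methylated aged cells. There 41 young and 22 aged cells were methylated, or 1.56% (1.12 to 2.11) and 2.60% (1.64 to 3.91), again with overlapping intervals. Its mean was 1.45% in young and 2.26% in aged cells, and the authors' deposited table lists an adjusted p of 1.24e-06. The log2 ratio of 0.64 was the smallest of the 8 and lay near 0.58, the smallest absolute value in the table. The 3 sites lie 247 and 291 bases apart in the spliced transcript, and their mean difference was 0.993 points.

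**Figure D2:**
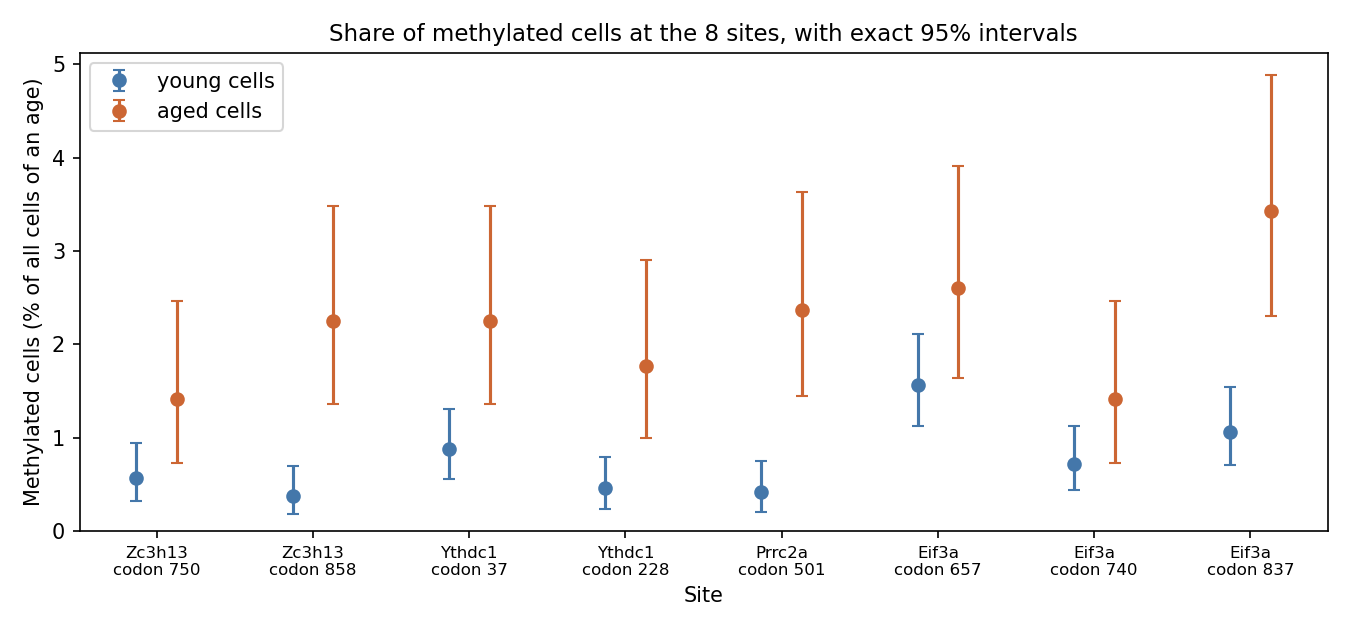
Share of methylated cells (y axis, percent of all cells of an age) at the 8 sites (x axis, by gene and codon) in 2623 young (blue) and 846 aged (orange) cells. Bars are exact 95% intervals for counting error. The aged value is higher at all 8 sites, and the intervals stay apart at 5.

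Across the 8 sites, shares ran from 0.381% to 1.56% in young and from 1.42% to 3.43% in aged cells, resting on 10 to 41 and 12 to 29 methylated cells. The intervals were apart with the aged share higher at 5 of 8 sites, against 47.4% of all listed sites and 63.8% of listed coding sites. A higher share was also the rule for listed coding sites, at 94.7%, so the 8 of 8 here are close to that background. Since a cell with no read over a site is counted as unmethylated, more reads per cell or more cells that express the gene would raise a share as well. Reads per site and expression were not analysed here, and their part in the result was not tested.

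By the fraction within methylated cells, 3 of the 8 sites were higher in aged cells, against 31.9% of listed sites with a methylated aged cell. The 8 aged fractions fell into 2 ranges, with 0.743% to 3.54% at the 3 sites after G and 31.4% to 86.9% at the 5 sites after A. In young cells the corresponding ranges were 14.3% to 40.8% and 28.9% to 93.0%, and they overlap. An aged fraction under 5% was found at 45.3% of listed sites and a young fraction under 5% at 16.0%, so the low aged values are not rare in the table. The number of reads behind these fractions is unknown, and the fractions rest on reading the deposited mean as over all cells. The share was higher and the mean lower in aged cells at 3 of the 8 sites, those after G. This holds for 35.3% of listed sites, so the count of 3 of 8 is close to that background.

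**Figure D3:**
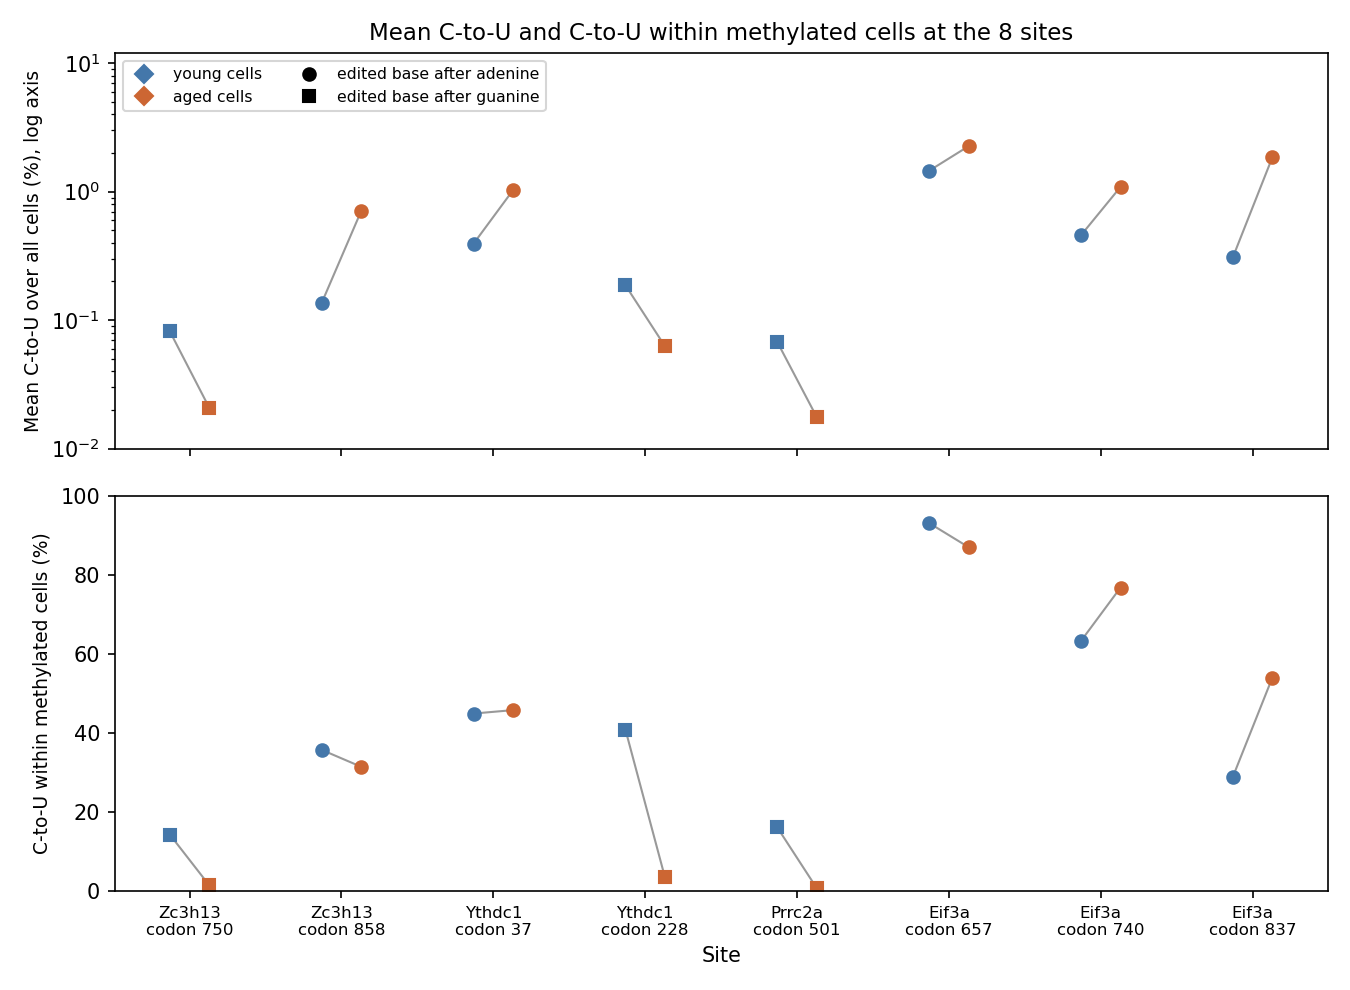
Mean C-to-U over all cells (top, percent, log axis) and C-to-U within methylated cells (bottom, percent) at the 8 sites (x axis, by gene and codon) in young (blue) and aged (orange) cells, joined by a line per site, with no error since the table gives 1 value per age. Circles are sites after A and squares sites after G. The squares at Zc3h13 codon 750, Ythdc1 codon 228 and Prrc2a codon 501 lie between 0.743% and 3.54% within aged methylated cells.

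With the deposited mean read as over all cells, it is the product of the share and the fraction within methylated cells. The log2 ratio of the mean is then the sum of theirs. At Zc3h13 codon 858 the share contributed 2.56 and the fraction -0.18, and at Eif3a codon 837 they contributed 1.68 and 0.90. At Ythdc1 codon 37 they were 1.36 and 0.03. At the 3 sites after G the share contributed 1.31 to 2.49 and the fraction -3.29 (Zc3h13 codon 750), -3.53 (Ythdc1 codon 228) and -4.44 (Prrc2a codon 501). The fraction thus set the direction of the mean at these 3 sites, and the share was the larger part at the other 5.

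**Figure D4:**
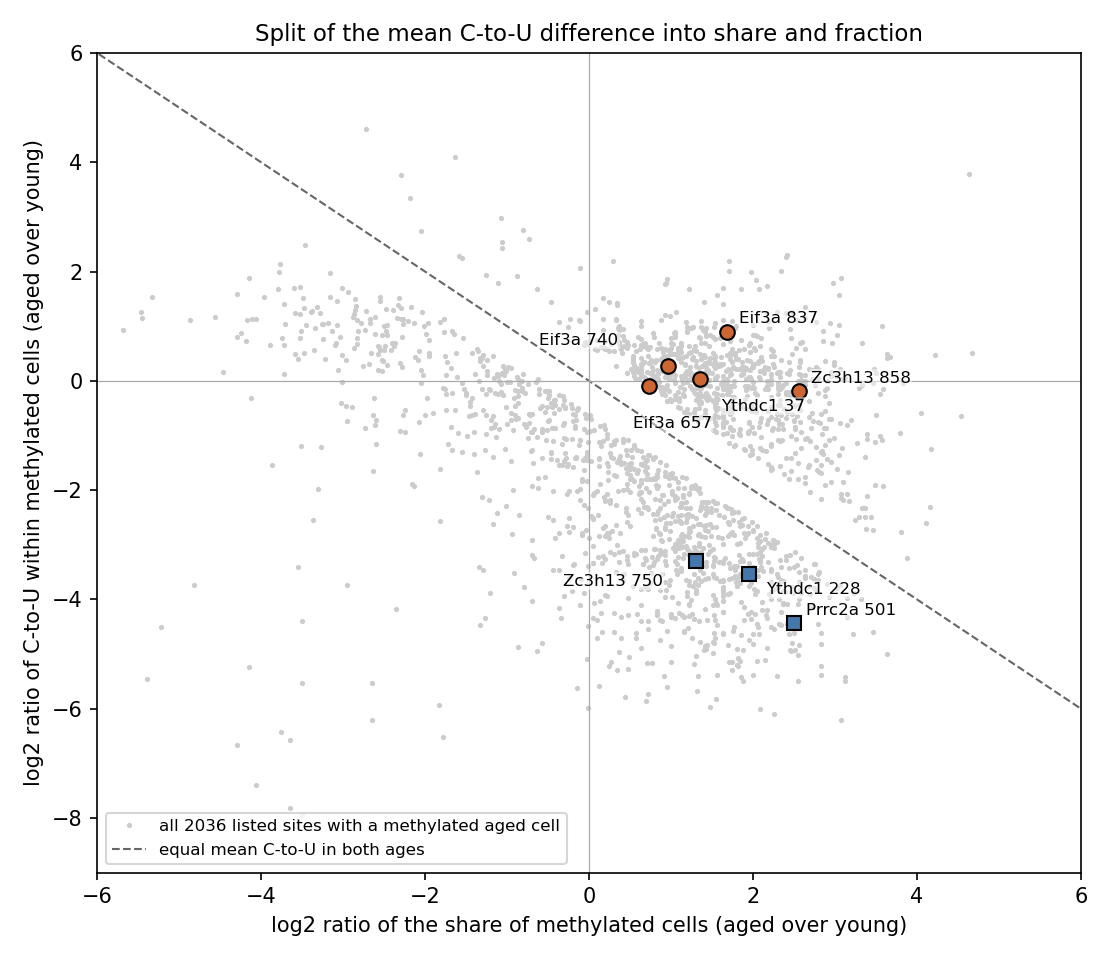
Each point is a site, with the log2 ratio (aged over young) of the share of methylated cells on the x axis and of C-to-U within methylated cells on the y axis. Grey points are the 2036 listed sites with a methylated aged cell, 1 of which lies outside the axes, and the dashed line marks equal means. The empty band along it reflects the smallest absolute log2 ratio of 0.58 in the table. The 5 circles (after A) lie between -0.18 and 0.90 on the y axis and the 3 squares (after G) between -4.44 and -3.29.

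The same split by preceding base was looked for in the table, as a description. Over all regions the mean was higher in aged cells at 46.7% of 1515 sites after A, so most of these had a lower mean, unlike the 5 sites here, and at 27.9% of 455 sites after another base. In coding sequence the mean was higher in aged cells at 64.8% of 640 sites after A and at 30.1% of 156 sites after another base. The share was higher at 94.5% and 95.5% of them. An aged fraction under 5% was found at 33.8% of the former and 72.9% of the latter, against 5.16% and 14.1% in young cells. The 8 sites therefore lie on the side of each class that holds most of its coding sites, but 30.1% of the sites after another base had a higher mean, so the separation seen in these 4 genes is not a rule of the table. Sites of a gene share their RNA and cells, and no test was run on these shares.

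Of 45 other genes on a list of the pathway drawn up for this report, 5 had a listed site. All 5 were placed among the readers on that list, an assignment that was not tested here. None of the 10 other writers, which include the catalytic subunits Mettl3 and Mettl14, had a listed site, nor had the erasers Fto and Alkbh5 or any of the 12 other eIF3 subunits. A gene without a listed site may still carry marks that did not differ or were too rare. How many genes entered the authors' comparison is not given in the table, so these counts have no background to be read against. The 5 genes hold 14 sites, of which 6 were higher by mean, 11 by share and 4 by the fraction within methylated cells. These counts are close to the table-wide 41.5% by mean and 75.4% by share. They are also close to the 31.9% by fraction among listed sites with a methylated aged cell. All 2055 sites have an adjusted p under 0.05 in the authors' deposited table, so that threshold does not set any of them apart.

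The closest relatives are Prrc2b and Prrc2c, the paralogs of Prrc2a. Prrc2b codes for a proline-rich coiled-coil protein like Prrc2a, and its coding site after A, at 32183226 on chromosome 2, went from 0.0395% to 1.07% by mean, with 15 young and 38 aged methylated cells. Its other site, after a C in the 3' UTR, went from 0.0908% to 0.0166%, with 1.27% within aged methylated cells. Prrc2c had 6 coding sites between 162710345 and 162710457 on chromosome 1. Both of its sites after A had a higher mean, the larger going from 0.253% to 2.94% with 62 methylated aged cells, while 2 of its 4 other sites were higher and 2 lower. Of its 3 sites after G, the 2 lower ones had 0.543% and 0.456% within aged methylated cells. The third, at 162710457, had a higher mean in aged cells, at 0.0598% and 0.128%, with 4.91% within aged methylated cells.

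Among the other 3 genes placed with the readers the split did not hold throughout. Hnrnpa2b1, an RNA-binding protein described as a nuclear reader, had 3 coding sites, all with under 5% within aged methylated cells. Of its 2 sites after G, 1 had a lower mean, and that at 51466919 on chromosome 6 a higher one, at 0.0178% in young and 0.0337% in aged cells. Its site after A had a lower mean, at 0.0511% in young and 0.0322% in aged cells. G3bp2, a stress granule protein, had 2 sites in its 3' UTR, both with a lower mean and a lower share, although 1 of them followed an A. Elavl3, a neuronal RNA-binding protein, had a mean of 1.63% (young) and 0.411% (aged) at its 3' UTR site, and its share of methylated cells was 13.5% (12.2 to 14.9) among young and 8.27% (6.51 to 10.3) among aged cells.

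Genes with similar averages over their sites were ranked by distance between 2 log2 ratios. These were those of the share and of the fraction within methylated cells, each taken after averaging over the listed sites of a gene. With 2 values per gene this is a coarse measure. For Eif3a (1.15 and 0.23), the 3 nearest of 155 genes with 3 or more sites were Atp2b1, Rb1cc1 and Smarca2, at distances of 0.0961 to 0.140. For Prrc2a (2.49 and -4.44), the nearest of 472 other genes with 1 site were Plcb4, Rexo1 and Plppr4. Among 154 other genes with 2 sites, Zfp704, Cdh10 and Gm37899 were nearest to Zc3h13 (1.94 and -0.60). Nearest to Ythdc1 (1.59 and -0.80) were Il1rapl1, Kcnq1ot1 and Sfpq. The averages of Zc3h13 and Ythdc1 merge 2 sites of opposite direction and describe neither, so a near gene need not share that split. The 3 genes nearest to Zc3h13 had a higher mean in aged cells at both of their sites, unlike Zc3h13.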

How the data were processed

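C-to-U sites were found with the Bullseye pipeline per the series' design text, and the submitters' processing notes name STAR 2.7.5 and mm10. The labels' protocols describe fixed whole cells and polyA RNA, the design text nuclei sorted for the neuronal marker NeuN and total RNA. No source used here gives the read filters, the handling of molecular identifiers or the authors' test. Per the file headers the authors deposited counts of methylated cells by site and age, with their percent of all cells (2623 young, 846 aged). Per the same headers, the C-to-U fraction was averaged by age by the authors before it was deposited. A log2 ratio, a p-value and an adjusted p-value were deposited with it. The headers do not say over which cells the mean was taken, and it was read here as over all cells of an age. Read so, the fraction within methylated cells ran from 0.0572% to 98.9% in young cells over the listed sites. In aged cells it ran from 0.0347% to 100%, and whether the reading is right was not tested. Fractions are printed as percent, the fraction within methylated cells is the mean divided by their share, and log2 ratios were computed as aged over young. Read depth is unknown. The lowest number of methylated cells at a listed site, summed over the ages, was 25.

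Positions were read as counted from 0 and printed from 1. Read so, 1970 of 2037 sites on an exon of their gene fell on a C, against 207 otherwise. Regions, codons and sequences came from GENCODE M21 (GRCm38, the assembly of mm10), using the highest-ranked transcript with an exon at the site. Protein-coding transcripts ranked first, then principal ones, then those with the annotation's CCDS tag, then its basic tag, then the longest. Shares carry Clopper-Pearson 95% intervals (scipy 1.17.1), tried on simulated data. Marker genes could not be checked, since the table holds no expression. The genes and the pathway list were chosen with earlier results of these data known. Named are the 4 genes with every site, pathway genes with a listed site, and the 3 genes nearest to each. The alternatives were other measures of direction, stricter filters, merged sites, a median or the largest site left out, Wilson intervals, a pseudocount of 0.1 points and all transcripts.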

Additional observations from a re-analysis of the deposited data

How the results depend on the processing

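The count of 5 sites with a higher mean became 8 when direction was read from the share of methylated cells and 3 when read from C-to-U within methylated cells. It was 5 of 8 with 10 or more methylated cells in each age, with an adjusted p under 0.01 in the authors' deposited table and with sites within 10 bases counted once, since no site was removed by these settings. It was 5 of 5 among sites after A. Without Ythdc1 codon 37, whose exon is shared with Gm43055, it was 4 of 7, a setting chosen after seeing the data. Leaving out the site with the largest difference turned the mean difference of Zc3h13 from 0.254 to -0.0610 points and that of Ythdc1 from 0.255 to -0.124 points, since 1 site of each gene then remained. That of Eif3a was 0.718 points without its largest site and 0.807 points as a median. Wilson intervals kept the number of sites with intervals apart in each gene. A pseudocount of 0.1 points kept the direction at 8 of 8 sites but brought the log2 ratios at the sites after G to -0.59 (Zc3h13), -0.82 (Ythdc1) and -0.51 (Prrc2a). When every transcript was used, 3 of the 8 sites also lay in a noncoding transcript. Leaving out a library was not run, since the table pools them, and for Prrc2a no site remained without its only one. No paired analysis was possible because the table holds 1 value per age and no young library.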
